A study of Rattus norvegicus with 12 samples.

Results

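The genes described here are 8 genes of lipid and cholesterol synthesis, chosen by name from the 30206 genes of the deposited table. They are Srebf1, Fasn, Elovl6, Acaca and Acly, which make up the fatty acid class, and Sqle, Idi1 and Insig1, which make up the sterol class. Each name matched 1 row, and all 8 rows passed the filter on low counts. RNA was measured in the pubocaudalis, a muscle of the pelvic floor, of 3-month-old female Sprague-Dawley rats. Every rat had simulated birth injury (SBI), a vaginal balloon distention, late in pregnancy. After parturition the pups were removed in the non-lactating groups (1wk SBI and 3wk SBI), while the lactating groups (1wk SBI + Lac and 3wk SBI + Lac) nursed. Muscles were taken 1 or 3 weeks after injury, RNA of 2 rats was pooled into each library, and each group held 3 pools, 12 libraries in all. No uninjured or non-pregnant muscle was among these libraries, so that each comparison is between injured muscles.

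Fatty acids are made in the cytosol. Acly, ATP citrate lyase, splits exported citrate into acetyl-CoA, Acaca, acetyl-CoA carboxylase alpha, turns that into malonyl-CoA, Fasn, fatty acid synthase, builds palmitate from both, and Elovl6 lengthens the product. Acetyl-CoA also feeds the sterol branch, where Idi1 interconverts the isoprene units and Sqle, squalene epoxidase, carries out a rate-limiting oxygenation late in cholesterol synthesis. Srebf1 encodes SREBP1, a transcription factor held in the endoplasmic reticulum membrane until it is cleaved, and Insig1 encodes the protein that retains the SREBP escort there when sterols are plentiful. Skeletal muscle makes little fatty acid compared with liver, fat or the lactating mammary gland, and much of the control of SREBP1 lies in protein cleavage, which a transcript count does not measure.

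The upstream sequence of the members is shown because textbooks describe binding of SREBP proteins, of which SREBP1 is only 1, near genes of both classes. RefSeq promoter entries (build GRCr8) matched 4 of the 8 members, Srebf1 with 2 start sites, Acly, Insig1 and Idi1. No sequence is shown for Fasn, Elovl6, Acaca and Sqle. The 4 windows printed below hold the 250 bases before a start, all on the minus strand, at chr10:45529165-45529414 for Srebf1 start 1, chr10:45519011-45519260 for Srebf1 start 2, chr10:85963632-85963881 for Acly and chr4:8057770-8058019 for Insig1. Capitals mark matches, on either strand, to the sterol element TCACNCCAC, the CCAAT box CCAAT, the E-box CACGTG and the GC box GGGCGG.
Srebf1 start 1: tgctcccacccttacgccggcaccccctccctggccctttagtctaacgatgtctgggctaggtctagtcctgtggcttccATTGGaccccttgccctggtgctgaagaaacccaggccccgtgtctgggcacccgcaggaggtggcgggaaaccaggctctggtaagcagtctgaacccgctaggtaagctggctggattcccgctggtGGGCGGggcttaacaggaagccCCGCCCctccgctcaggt
Srebf1 start 2: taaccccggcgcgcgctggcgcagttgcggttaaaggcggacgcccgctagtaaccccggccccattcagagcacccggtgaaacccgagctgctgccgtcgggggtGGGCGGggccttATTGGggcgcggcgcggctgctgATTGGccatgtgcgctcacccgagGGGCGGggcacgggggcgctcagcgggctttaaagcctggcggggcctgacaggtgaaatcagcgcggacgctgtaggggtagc
Acly: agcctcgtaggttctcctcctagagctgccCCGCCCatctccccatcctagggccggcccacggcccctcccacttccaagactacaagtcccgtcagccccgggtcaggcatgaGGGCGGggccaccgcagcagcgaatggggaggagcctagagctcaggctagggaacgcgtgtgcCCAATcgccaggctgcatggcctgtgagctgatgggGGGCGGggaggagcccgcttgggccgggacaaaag
Insig1: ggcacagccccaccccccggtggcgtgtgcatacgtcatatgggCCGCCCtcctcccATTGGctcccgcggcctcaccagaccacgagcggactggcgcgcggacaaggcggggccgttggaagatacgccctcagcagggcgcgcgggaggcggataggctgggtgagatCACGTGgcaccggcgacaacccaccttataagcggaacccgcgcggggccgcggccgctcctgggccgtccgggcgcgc

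None of the 5 member windows, Idi1 included, held these letters of the sterol element, which occurred in 0.974% of 33469 rat promoters of the same length. All 5 held a CCAAT box, as did 34% of all promoters. The box lay 71 to 67 bases before the Acly start and 193 to 189 bases before the Insig1 start, and the second Srebf1 start had 2 of them, at 131 to 127 and at 108 to 104. Insig1 alone among these members had an E-box, 79 to 74 bases before its start, a motif found in 5.59% of promoters. GC boxes, found in 30.5% of promoters, were present in each window except that of Idi1. The deposited table counts reads per gene, so the level of Srebf1 sums both starts, and motif matches are described here as letters only.

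Total counts ran from 10082734 to 75634391 per library, and at 1 week each non-lactating library (41201635 to 51662983) was deeper than each lactating one (30862144 to 39844090). The muscle identity of the samples was plain from their markers, with 7 skeletal muscle genes summing to between 73101 and 183664 normalized CPM, the unit used here for counts scaled to library size. Levels below are CPM scaled by edgeR's TMM factors and are not divided by gene length, so they are compared within a gene and not between genes. In bulk muscle, fewer cells of a type and less RNA per cell cannot be told apart. Adjusted p-values are from edgeR's quasi-likelihood test over 14599 genes with Benjamini-Hochberg adjustment, and a gene was called at an adjusted p under 0.05 with an absolute log2 fold change over 1. The pools are named by different rats, but one description in the study calls them technical replicates, so that the p-values measure the spread between these pools.

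At 1 week after SBI, Fasn, Acly and Sqle were each lower in every lactating pool than in any non-lactating pool, but none of the 8 genes passed the adjusted test (0 of 8 called, against 0.253% of all genes tested). Pools that did not overlap were found in 3 of 8 members, all lower, and in 28.4% of all genes, 14.1% lower. At an unadjusted p under 0.05 the count was the same 3 of 8, where 18.9% of all genes passed and 9.16% were lower. DESeq2 on all 12 libraries also called 0 of 8, and DESeq2 on the 6 libraries compared called 1, Sqle. The share of all genes that DESeq2 called was not computed, here or in the comparisons below, so its counts have no background. The other 5 genes, Srebf1 among them, had overlapping pools. The median log2 fold change was -0.43 over the 5 fatty acid genes, 4 of which were lower, and -0.036 over the 3 sterol genes, 2 of which were lower, beside -0.0038 over all genes.

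**Figure D1:**
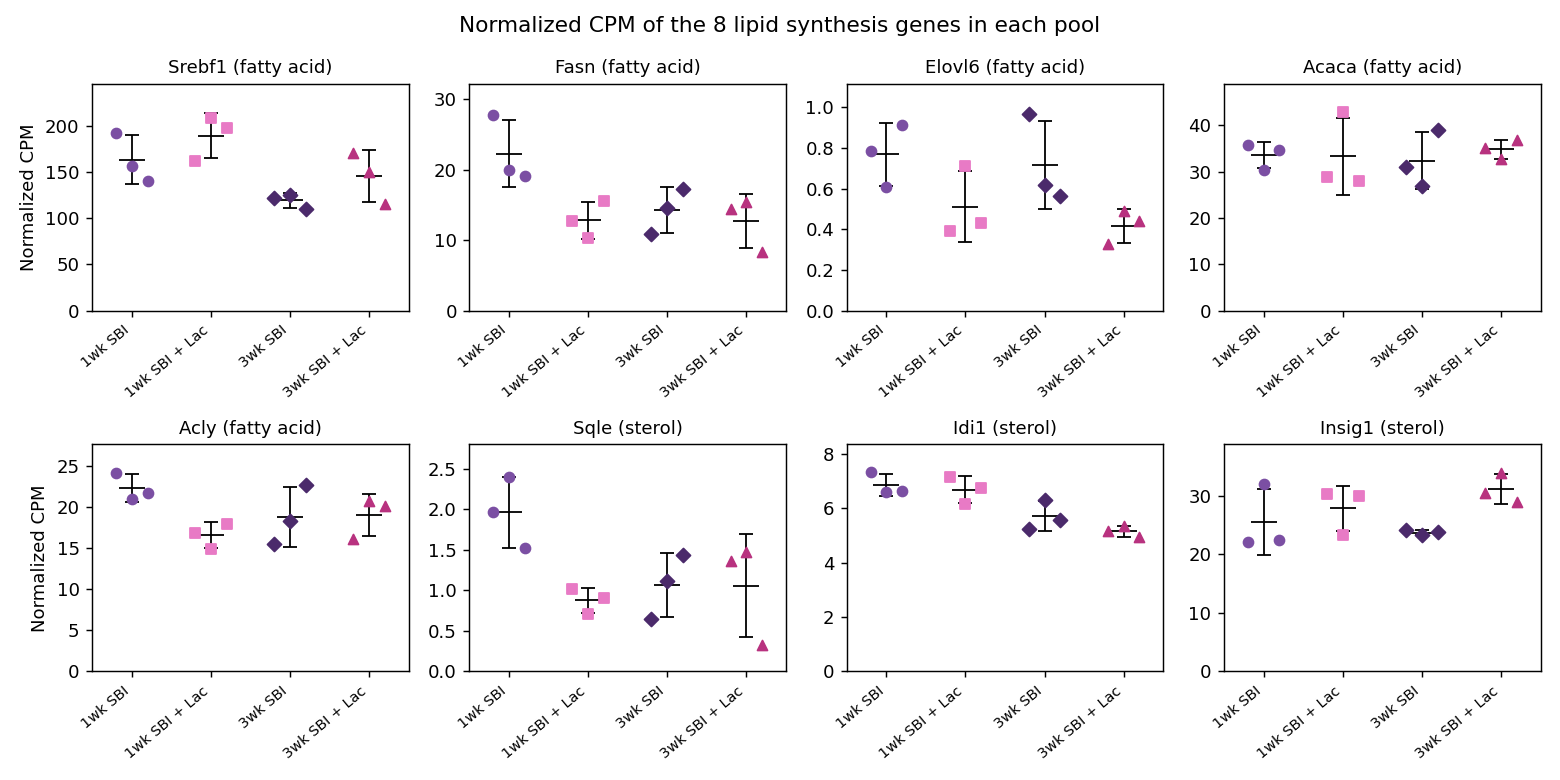
Normalized CPM (vertical axes, from 0) of each gene in the 12 pools, by group (horizontal axes); points are pools and bars are the mean ± SD of 3 pools. For Fasn, Acly and Sqle the 3 pools of 1wk SBI lie above the 3 pools of 1wk SBI + Lac, with Fasn at 19.1 CPM or more against 15.5 or less.

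Srebf1 (ENSRNOG00000003463), the regulator, stood at 192, 156 and 141 CPM in 1wk SBI and at 161, 208 and 197 CPM in 1wk SBI + Lac. One lactating pool lay inside the non-lactating range and the other 2 above it, so the groups overlapped. The means were 163 ± 26.6 and 189 ± 24.7 CPM (SD, n = 3 each), and the log2 fold change of 0.21 had a 95% interval from -0.11 to 0.54 (adjusted p = 0.463). The estimate for Srebf1 was above 0 and those of the enzymes with a gap between groups were below 0. Since its interval spans 0, the direction of Srebf1 was not resolved.

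Fasn (ENSRNOG00000045636), which carries out the condensing steps of palmitate synthesis, measured 27.8, 20.0 and 19.1 CPM in 1wk SBI and 12.7, 10.3 and 15.5 CPM in 1wk SBI + Lac. All 3 lactating pools were below the lowest non-lactating pool. Group means were 22.3 ± 4.80 and 12.8 ± 2.60 CPM (SD, n = 3), a log2 fold change of -0.79 (SE 0.23, 95% interval -1.28 to -0.30) with an adjusted p of 0.0981 by edgeR. Without replicate 1 of 1wk SBI, its highest pool, the log2 fold change was -0.60 and the adjusted p 0.386. DESeq2 gave Fasn an adjusted p of 0.0265 on all 12 libraries and of 0.00367 on the 6 libraries of this time point, in both cases short of the fold cutoff.

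Acly (ENSRNOG00000016924), which supplies the acetyl-CoA, showed the tightest groups of the 3, with 24.1, 20.9 and 21.7 CPM in 1wk SBI and 16.8, 14.8 and 17.9 CPM in 1wk SBI + Lac. Here too the pools did not overlap. The means were 22.2 ± 1.70 and 16.5 ± 1.58 CPM (SD, n = 3), a log2 fold change of -0.43 (SE 0.14, 95% interval -0.73 to -0.13). The adjusted p was 0.123 by edgeR, 0.0866 by DESeq2 on 12 libraries and 0.0263 by DESeq2 on 6, with a fold change under the fold cutoff in each.

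Acaca (ENSRNOG00000034013), the enzyme between Acly and Fasn, did not share the gap. Its 1wk SBI pools were at 35.6, 30.4 and 34.8 CPM and its 1wk SBI + Lac pools at 28.9, 42.9 and 28.0 CPM, so that 2 lactating pools lay below all the non-lactating ones and the third above them. The log2 fold change was -0.016 with a 95% interval of -0.36 to 0.32, and its direction turned in 4 of the 6 fits that left out 1 pool of this time point. Elovl6 (ENSRNOG00000048949) was counted at only 4 to 49 reads per library. Its CPM was 0.785, 0.607 and 0.914 in 1wk SBI and 0.393, 0.712 and 0.430 in 1wk SBI + Lac, with overlap, and the interval of its log2 fold change ran from -1.52 to 0.35.

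In the sterol class, Sqle (ENSRNOG00000009550) was at 1.97, 2.40 and 1.52 CPM in 1wk SBI and at 1.02, 0.712 and 0.908 CPM in 1wk SBI + Lac. The groups did not overlap, and the means were 1.96 ± 0.436 and 0.879 ± 0.154 CPM (SD, n = 3). The log2 fold change of -1.16 was the largest in size of the 8 at 1 week, but with an SE of 0.41 and a 95% interval of -2.03 to -0.28 it gave adjusted p = 0.145 by edgeR. DESeq2 gave adjusted p = 0.0709 on 12 libraries and 0.0132 on 6.

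Idi1 (ENSRNOG00000016690), an earlier step of the sterol branch, was nearly level at 7.34, 6.60 and 6.63 CPM in 1wk SBI and 7.15, 6.17 and 6.74 CPM in 1wk SBI + Lac. The groups overlapped, and the log2 fold change was -0.036 (95% interval -0.34 to 0.26). Insig1 (ENSRNOG00000006859), the sterol sensor partner, was at 22.1, 32.0 and 22.4 CPM without lactation and at 30.3, 23.4 and 30.0 CPM with it. Those groups overlapped as well, with a log2 fold change of 0.13 and a 95% interval of -0.17 to 0.43.

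The ratio of 2 genes in 1 library needs no scaling between libraries, and such ratios to Srebf1 were computed after the values above were seen. Fasn stood at 14.5, 12.8 and 13.6 counts per 100 Srebf1 counts in 1wk SBI and at 7.89, 4.94 and 7.85 in 1wk SBI + Lac. The corresponding ratio for Acly was 12.5, 13.4 and 15.4 against 10.4, 7.11 and 9.09, and that for Sqle 1.02, 1.54 and 1.08 against 0.630, 0.342 and 0.460. The ratio for Elovl6 was 0.408, 0.390 and 0.650 against 0.244, 0.342 and 0.218. None of these 4 overlapped between the groups, while those of Acaca, Idi1 and Insig1 did. The share of all genes whose ratio to Srebf1 did not overlap was not computed. Mean Srebf1 was itself higher with lactation, at 189 against 163 CPM at 1 week and 145 against 119 CPM at 3 weeks. A higher divisor lowers each ratio, so a lower ratio is not by itself a lower level of the gene. By CPM, Elovl6 at 1 week and Idi1 at 3 weeks overlapped. At 3 weeks the ratios of Elovl6 (0.790, 0.495 and 0.513 against 0.191, 0.325 and 0.381) and Idi1 (4.30, 5.04 and 5.07 against 3.03, 3.55 and 4.29) did not overlap, both lower with lactation, and the other 5 did. The exact two-sided permutation test gave p = 0.1 for each ratio that did not overlap, the smallest that 3 against 3 pools allow, and 0.233 after adjustment over all 14 tests. The others had p from 0.2 to 0.7.

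At 3 weeks after SBI, the gaps of Fasn, Acly and Sqle were not seen again, and Insig1 and Elovl6 were the genes whose pools did not overlap, Insig1 higher and Elovl6 lower with lactation. None of the 8 was called by edgeR (0 of 8, against 0.740% of all genes), and 0 of 8 were called by DESeq2 on 12 or on 6 libraries. At an unadjusted p under 0.05 the count was 1 of 8, Insig1, where 21.1% of all genes passed and 9.88% were higher. Pools that did not overlap were found in 2 of 8 members and in 22.3% of all genes. The median log2 fold change was -0.011 over the 5 fatty acid genes and 0.033 over the 3 sterol genes, beside -0.019 over all genes.

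Insig1 was at 24.1, 23.3 and 23.8 CPM in 3wk SBI and at 30.5, 34.0 and 28.9 CPM in 3wk SBI + Lac. Every lactating pool was above every non-lactating one, whose range was narrow. The means were 23.7 ± 0.432 and 31.1 ± 2.58 CPM (SD, n = 3), a log2 fold change of 0.40 (SE 0.15, 95% interval 0.088 to 0.71). By edgeR the adjusted p was 0.137, and with 1 pool left out the adjusted p was between 0.160 and 0.312.

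Srebf1 was at 122, 125 and 110 CPM in 3wk SBI and at 171, 150 and 115 CPM in 3wk SBI + Lac. The third lactating pool lay inside the non-lactating range and the other 2 above it. The means were 119 ± 8.01 and 145 ± 28.0 CPM (SD, n = 3), and the log2 fold change was 0.29 (95% interval -0.038 to 0.62, adjusted p = 0.295).

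Among the fatty acid enzymes at 3 weeks, Fasn was at 10.8, 14.6 and 17.3 CPM in 3wk SBI and at 14.4, 15.4 and 8.35 CPM in 3wk SBI + Lac, the lowest value being that of replicate 3 with lactation, a library of 10704307 counts. Acly was at 15.4, 18.2 and 22.6 CPM against 16.0, 20.7 and 20.1 CPM. Both overlapped between the groups, the Acly pools with lactation lying inside the range of those without it. The log2 fold changes were -0.15 for Fasn (95% interval -0.66 to 0.36) and -0.011 for Acly (95% interval -0.32 to 0.30).

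Acaca was at 31.0, 26.9 and 39.0 CPM in 3wk SBI and at 35.0, 32.7 and 36.8 CPM in 3wk SBI + Lac, the lactating pools lying inside the non-lactating range. Elovl6 was at 0.965, 0.619 and 0.564 CPM against 0.326, 0.488 and 0.440 CPM, without overlap. Its log2 fold change was -0.70 (95% interval -1.73 to 0.34, adjusted p = 0.436). A difference of its size was therefore not resolved at this depth.

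Of the sterol enzymes, Sqle was at 0.644, 1.11 and 1.44 CPM in 3wk SBI and at 1.37, 1.48 and 0.330 CPM in 3wk SBI + Lac. The last value rests on 3 counts, which allow 0.0680 to 0.964 CPM (95% Poisson interval, counting error only). The log2 fold change of 0.033 had an interval from -0.88 to 0.95, so that neither direction can be read from Sqle at this time. Idi1 was at 5.26, 6.32 and 5.58 CPM against 5.18, 5.33 and 4.95 CPM, with overlap and a log2 fold change of -0.15 (95% interval -0.47 to 0.18).

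**Figure D2:**
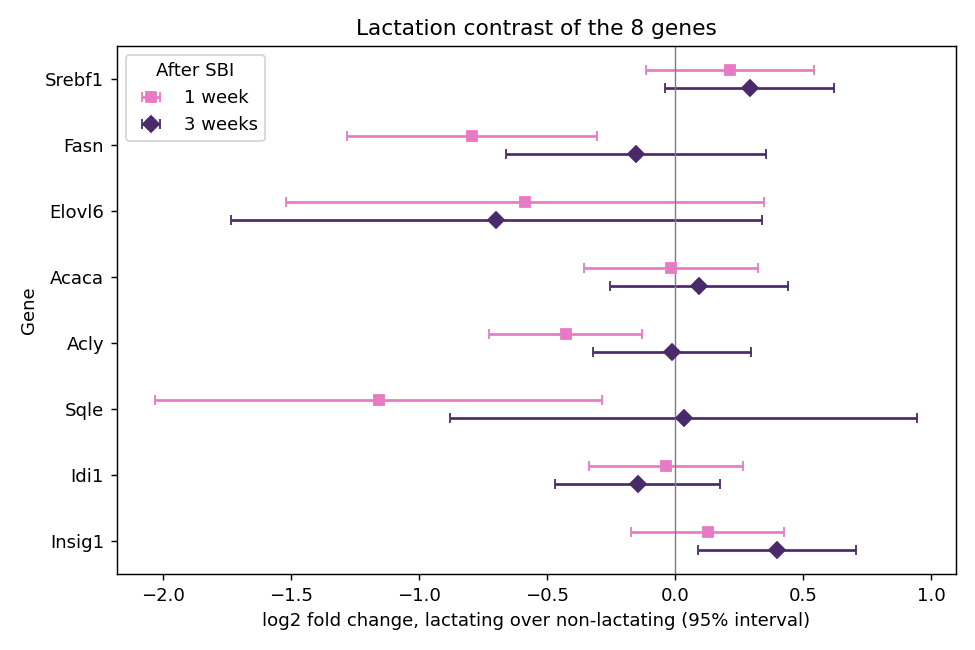
Log2 fold change, lactating over non-lactating (horizontal axis), for each gene (vertical axis) at 1 week (squares) and 3 weeks (diamonds); lines are 95% intervals of the edgeR fit. The intervals of Fasn, Acly and Sqle lie below 0 at 1 week and span 0 at 3 weeks, and that of Insig1 lies above 0 at 3 weeks, before adjustment over all genes.

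Whether the lactation difference itself changed between the time points was tested as an interaction over the 12 libraries. No member was called by edgeR (0 of 8, against 0.00685% of all genes) or by DESeq2 (0 of 8). None reached an unadjusted p under 0.05 by edgeR, which 4.42% of all genes did. The difference, 3 weeks minus 1 week, was 0.64 on the log2 scale for Fasn (95% interval -0.063 to 1.35), 0.42 for Acly (-0.013 to 0.85) and 1.19 for Sqle (-0.071 to 2.45). The adjusted p was 0.999 for each of the 8 genes. The gap at 1 week and its absence at 3 weeks are therefore not shown to differ.

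Along time, 1wk SBI had the highest mean for Fasn (22.3 CPM), Acly (22.2 CPM), Sqle (1.96 CPM), Elovl6 (0.769 CPM) and Idi1 (6.85 CPM). Its pools lay above those of the next group in order for Fasn, Acly and Sqle, although for Acly they overlapped those of 3wk SBI, the group after that. All other neighbours in the order of the 4 groups overlapped, for all 8 genes. The order was worked out for the 8 genes only. The share of all genes with their highest mean, or such a gap, in 1wk SBI was not computed. Srebf1 and Insig1 had their highest means in lactating groups, Srebf1 in 1wk SBI + Lac and Insig1 in 3wk SBI + Lac.

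In the non-lactating groups all 8 genes were lower at 3 weeks than at 1 week, as were 51.0% of all genes. None of the 8 was called by edgeR (0 of 8, against 1.46% of all genes) or by DESeq2. At an unadjusted p under 0.05 there were 2 of 8, Srebf1 and Fasn, both lower, where 21.2% of all genes passed and 9.94% were lower. The log2 fold change was -0.45 for Srebf1 (95% interval -0.78 to -0.12, adjusted p = 0.105) and -0.61 for Fasn (-1.11 to -0.12, adjusted p = 0.143). In the lactating groups 3 genes were lower and 5 higher at 3 weeks, where 52.3% of all genes were lower. Again none was called by edgeR (0 of 8, against 0.774% of all genes) or by DESeq2. There Srebf1 (log2 fold change -0.38, adjusted p = 0.208) and Idi1 (-0.37, adjusted p = 0.199) passed the unadjusted threshold, both lower, where 18.1% of all genes passed and 9.78% were lower. The time points may have been counted differently, which the labels do not state. The 1-week values are whole and the 3-week values carry decimals. Also, 30 genes without a single read at 1 week reached a sum of 100 or more at 3 weeks, with 0 genes the other way round. Time and any difference in counting cannot be told apart in these comparisons.

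The other genes of the same pathways place the 8 in context. Over all genes tested, 50.5% were lower with lactation at 1 week and 52.3% at 3 weeks, shares to set beside the counts of direction below. Of 20 fatty acid synthesis genes (4 of them described above), 14 were lower and 6 higher with lactation at 1 week, and 0 passed an adjusted p under 0.05, a threshold that 0.569% of all genes passed. At 3 weeks 1 fell and 2 rose, beside 2.54% of all genes passing. The gene that fell was Scd, stearoyl-CoA desaturase, which introduces the double bond of oleate. It was at 136, 52.1 and 129 CPM in 3wk SBI and at 29.2, 19.0 and 25.4 CPM in 3wk SBI + Lac, a log2 fold change of -2.11 (SE 0.38, adjusted p = 0.0210). At 1 week its pools were also apart, with 829, 495 and 356 CPM against 227, 221 and 257 CPM (log2 fold change -1.25, adjusted p = 0.109). Scd is commonly counted as an SREBP1 target, as Fasn is, and it was the only gene of the 5 lipid lists past both cutoffs in a lactation comparison by edgeR.

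The fatty acid genes that rose at 3 weeks were Mid1ip1, whose protein promotes the polymerization of acetyl-CoA carboxylase, and Tecr, the last enzyme of the very long chain elongation cycle. Mid1ip1 was at 28.0, 33.1 and 29.3 CPM in 3wk SBI and at 48.3, 51.5 and 63.8 CPM in 3wk SBI + Lac (log2 fold change 0.85, adjusted p = 0.00934). Tecr was at 309, 277 and 230 CPM against 376, 403 and 437 CPM (log2 fold change 0.58, adjusted p = 0.0344). Scd lost its call without any 1 of 4 of the 6 pools and Tecr without any 1 of 5 of them, with adjusted p up to 0.101 and 0.110, while Mid1ip1 kept its call in all 6 such fits. With edgeR on only the 6 libraries compared, Scd had an adjusted p of 0.0722 and Tecr of 0.0530, and with the replicate number as a block Tecr had 0.0664.

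Of 20 sterol synthesis genes (Sqle and Idi1 among them), 10 were lower and 10 higher at 1 week and 5 lower and 15 higher at 3 weeks, with 0 passing an adjusted p under 0.05 at either time by edgeR. At an unadjusted p under 0.05 there were 2 lower and 3 higher at 1 week, and 0 lower and 4 higher at 3 weeks, or 5 of 20 and 4 of 20, beside 18.9% and 21.1% of all genes. The smallest p belonged to Fdft1, squalene synthase, the step before Sqle. It was at 37.6, 43.1 and 55.3 CPM in 1wk SBI and at 78.8, 71.4 and 61.1 CPM in 1wk SBI + Lac, without overlap. Its log2 fold change was 0.64 at 1 week (adjusted p = 0.0716) and 0.64 at 3 weeks (adjusted p = 0.0557), so that neighbouring steps of the sterol branch had opposite signs at 1 week.

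Of 13 genes of SREBP control and sterol uptake, 10 were tested, Srebf1 and Insig1 included, and 6 were lower and 4 higher at 1 week and 7 lower and 3 higher at 3 weeks. Mylip, the ligase that marks the LDL receptor for degradation, fell at 3 weeks from 32.8 ± 2.61 to 24.2 ± 1.04 CPM (SD, n = 3; log2 fold change -0.45, adjusted p = 0.04997), a call lost in each of the 6 fits without 1 pool, with adjusted p from 0.0525 to 0.184, and under 4 of 10 alternatives with all pools, with adjusted p up to 0.0916. Among 6 genes of the LXR receptors and cholesterol efflux, Nr1h3 (LXR alpha) and its partner Rxra rose at 3 weeks and Abca1, the efflux pump, fell. Nr1h3 was at 8.58, 9.72 and 8.41 CPM in 3wk SBI and at 17.0, 15.0 and 15.7 CPM in 3wk SBI + Lac (log2 fold change 0.84, adjusted p = 0.00934). Rxra rose by 0.63 on the log2 scale (adjusted p = 0.00934) and Abca1 fell by 0.68 (adjusted p = 0.0174). Without replicate 1 of 3wk SBI + Lac the adjusted p was 0.0508 for both Nr1h3 and Rxra, and Abca1 lost its call in 3 of 6 such fits (adjusted p up to 0.0807). At 1 week Rxra rose too, by 0.51 (adjusted p = 0.0408), a call lost in 5 of 6 fits without 1 pool, with adjusted p up to 0.213, and with the replicate block (0.0944). Of the 7 triglyceride assembly genes tested, 0 passed at either time by edgeR, with 0 of 7 at 1 week and 1 of 7, lower, at 3 weeks at an unadjusted p under 0.05, thresholds that 18.9% and 21.1% of all genes passed.

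**Figure D3:**
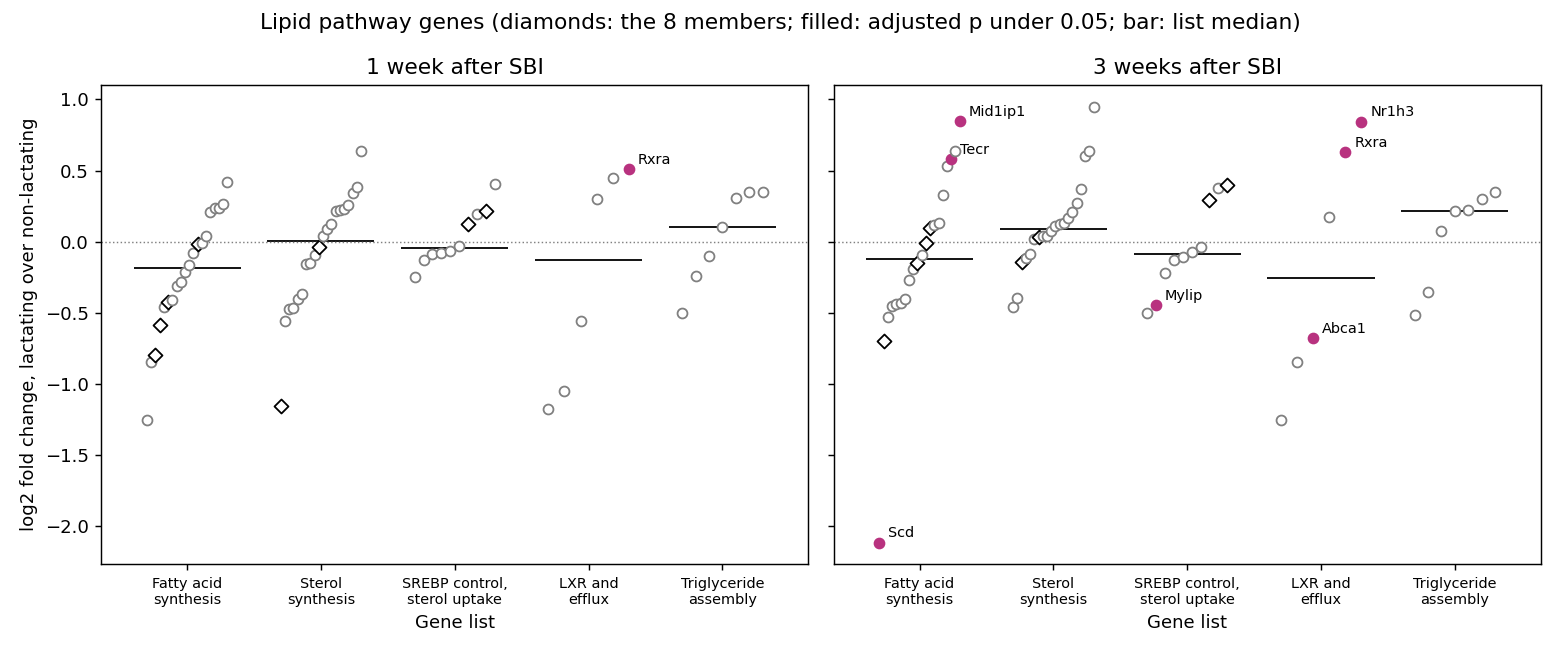
Log2 fold change, lactating over non-lactating (vertical axes), of each gene of 5 lipid gene lists (horizontal axes) at 1 week (left) and 3 weeks (right). Diamonds are the genes of this account, circles the other list genes, filled points those with an adjusted p under 0.05, and bars the list medians; all diamonds are open, and the lowest point at 3 weeks is Scd at -2.11.

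Markers of other cells moved between the same groups. The summed level of 8 macrophage markers was 442 to 456 CPM in 1wk SBI and 276 to 377 CPM in 1wk SBI + Lac, with 7 of 8 lower, and Cd68 fell at both times (adjusted p = 0.0417 and 0.0150). Cd68 lost that call in 5 of 6 fits without 1 pool at 1 week (adjusted p up to 0.197), with the replicate block at 1 week (0.0714), and in 3 of 6 fits without 1 pool at 3 weeks (up to 0.0804). All 4 markers of regenerating myofibers were lower with lactation at 1 week (sums of 1308 to 3249 against 674 to 1135 CPM), with 0 called by edgeR, and the 7 tested skeletal muscle markers summed to 73101 to 115490 against 113934 to 136447 CPM. At 3 weeks the macrophage markers summed to 314, 355 and 725 CPM in 3wk SBI, where replicate 3 stood apart, and to 297 to 505 CPM in 3wk SBI + Lac, with 8 of 8 lower. The regenerating myofiber markers summed to 193 to 702 against 144 to 176 CPM, with 4 of 4 lower. The skeletal muscle markers summed to 110188 to 148482 against 160077 to 183664 CPM, without overlap, with 6 of 7 higher. The part of these cells in the levels of the 8 genes, and of the pathway genes that passed the test at 3 weeks, was not tested.

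Fat and milk-secreting cells make fatty acids in quantity, so their markers are given beside Fasn. The 8 adipocyte markers summed to 110 to 134 CPM in 1wk SBI and 108 to 131 CPM in 1wk SBI + Lac, sums that overlapped and that were mostly Fabp4, at 66.6 to 95.2 and 78.6 to 95.9 CPM. Of the 7 adipocyte markers tested, 6 were lower with lactation at 1 week and 0 passed by edgeR, adjusted or unadjusted, and Cidec was at 0.705, 0.590 and 0.797 CPM against 0.164, 0.712 and 0.215 CPM. Adipoq, the adipocyte hormone adiponectin, was at 2.60, 2.07 and 3.47 CPM against 0.885, 3.05 and 0.812 CPM. The part of fat cells in the level of Fasn was not tested. The 6 mammary markers were at 0 in each 1wk SBI library and summed to 0.689 to 2.89 CPM in 1wk SBI + Lac, where Fasn was lower. At 3 weeks the milk protein gene Csn2 was at 14.1, 4.05 and 0 CPM in the lactating pools, and Fasn at 14.4, 15.4 and 8.35 CPM in the same pools. In these pools the 8 adipocyte markers summed to 108, 139 and 95.3 CPM, with Adipoq at 3.61, 7.71 and 0.879 CPM. In 3wk SBI they summed to 114, 134 and 150 CPM, with Adipoq at 2.79, 7.62 and 3.56 CPM. The part of milk-secreting cells in the level of Fasn was not tested either. Markers of Schwann cells, which also make lipid, summed to 45.3 to 78.1 CPM in 1wk SBI and 53.5 to 99.9 CPM in 1wk SBI + Lac, with overlap.

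Fasn also varied with the depth of the libraries. Its CPM followed the order of the total counts in 3 of the 4 groups, a pattern found in exactly 3 groups in 4.19% of the genes tested and in all 4 in 0.548%. Sqle followed it in 2 groups, both at 3 weeks, and 14.6% of genes followed it in exactly 2. At 1 week each non-lactating library was deeper than each lactating one, so depth and lactation cannot be told apart there. Libraries were also thinned to the same total within each time point. Thinning keeps each gene's expected share of its library, so it cannot remove a CPM difference that goes with depth. After thinning, the log2 fold change at 1 week was -0.82 for Fasn (adjusted p = 0.0749 by edgeR), -0.44 for Acly and -1.15 for Sqle. The part of depth in the level of Fasn was not tested.

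**Figure D4:**
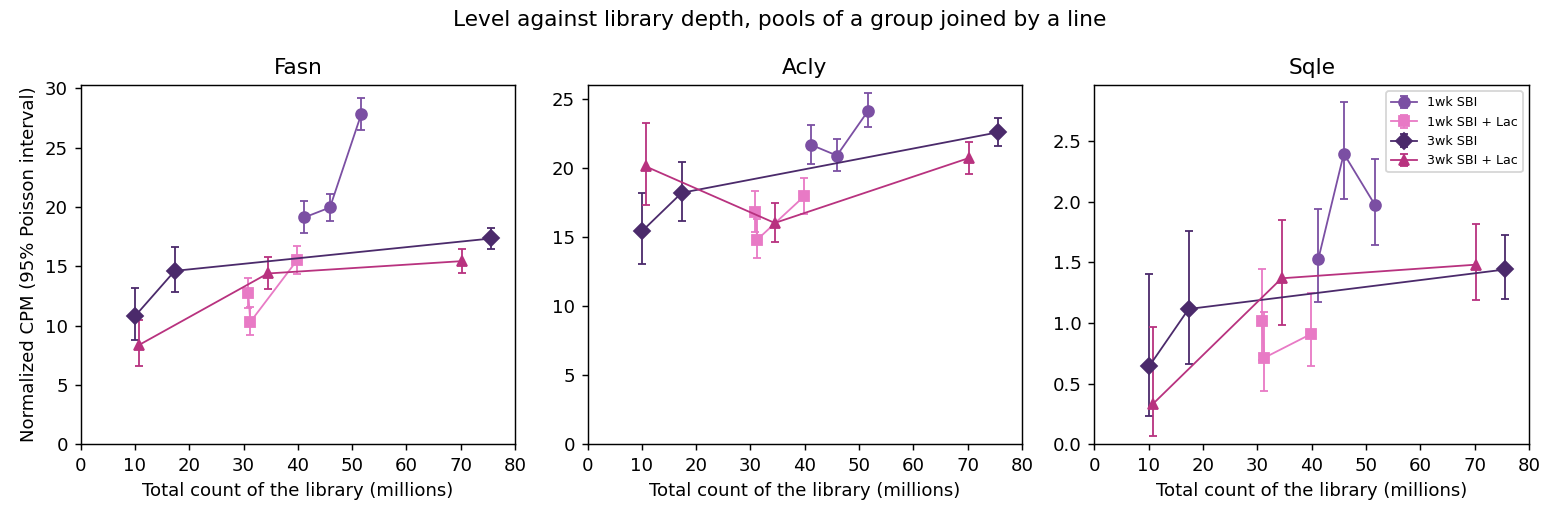
Normalized CPM (vertical axes) of Fasn, Acly and Sqle against the total count of each library (horizontal axes); pools of a group are joined in order of depth and bars are 95% Poisson intervals, which cover counting error only. Fasn is higher in deeper libraries along the lines of 1wk SBI, 3wk SBI and 3wk SBI + Lac, and its 1wk SBI pools lie above the 3wk pools of greater depth.

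The genes whose pattern over the 12 libraries was closest to the mean of the 5 fatty acid genes were Ywhah, Ilk, Slc31a1, Sufu and Mta2, with root mean square differences of 0.0900 to 0.101 on the centred log2 CPM scale, where the pattern itself had an SD of 0.192. For the 3 sterol genes they were Prkci, St6gal1, Armc9, Pfkl and Nbeal2, at 0.0916 to 0.140 beside an SD of 0.290. They were picked from 8731 candidate genes for the fatty acid pattern and 9115 for the sterol pattern, few of which are in the 5 lipid lists. None of these 10 was in those lists, which by itself says little about lipid genes.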

How the data were processed

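PolyA-selected RNA of pubocaudalis muscle was sequenced after a stranded mRNA library kit. The authors deposited gene counts for all 12 libraries in 1 table. The 1-week columns hold whole counts. The deposited 3-week columns hold values read as each gene's expected count, as tools that share reads between transcripts give, in which 26.6% to 44.0% of values carry decimals, and these were rounded. Salmon is named in the submitters' processing notes without a version. The genome build of the counts is not given in the sources used here. No column was left unused.

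Genes were filtered with filterByExpr (14599 of 30206 kept), scaled by TMM and fitted over all 12 libraries and 4 groups with edgeR 4.0.16 (quasi-likelihood, robust; limma 3.58.1, R 4.3.3) and Benjamini-Hochberg adjustment. A call needed a log2 fold change over 1 in size and an adjusted p under 0.05. For pathway and marker lists the adjusted p alone was used. DESeq2 1.42.0, other scalings, other filters, equal depth, the replicate number as a block and the omission of each pool were alternatives. For equal depth, libraries were thinned within a time point for the lactation comparisons and over all 12 libraries for the others. Total counts were 10082734 to 75634391 per library. Intervals of log2 fold changes at 95% use the standard error of the edgeR fit, which includes the spread between pools. Poisson intervals at 95% cover counting error only. No 2 libraries of a group were copies of one another.

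All 8 members are named. From each list, the genes named are at most 5 with an adjusted p under 0.05 in a lactation comparison, or, where there are none, at most 3 with the smallest p. Adipoq was named in addition, outside this rule. The genes most like the members are the 5 closest to each class mean (log2 CPM, prior count 2), among genes with a mean of at least 1 CPM and an SD of 0.5 to 2 times that of the class. The members and lists were chosen with earlier results of these data known. Mbtps2, Rnf139, Mlxipl and Myh1 matched no row. Promoters are from RefSeq.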

Additional observations from a re-analysis of the deposited data

How the results depend on the processing

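No member was called in the main fits, and the one exception among the alternatives was Sqle at 1 week with DESeq2 on only the libraries compared, 1 member. Of 409 values of the 8 members recomputed under the alternatives, 381 kept their direction and side of the threshold, 1 gained a call and 27 turned direction. With all pools, the turned values were those of Acly at 3 weeks (0.012 with the replicate block and 0.038 at equal depth), Sqle at 3 weeks (-0.056 with the replicate block) and the Srebf1 difference between times (-0.019 at equal depth). With 1 pool left out, the log2 fold change ranged from -0.24 to 0.096 for Acaca and -0.089 to 0.019 for Idi1 at 1 week. At 3 weeks it ranged from -0.31 to 0.047 for Fasn, -0.018 to 0.27 for Acaca, -0.12 to 0.16 for Acly and -0.23 to 0.36 for Sqle. The difference between times ranged from -0.060 to 0.23 for Srebf1, -0.30 to 0.18 for Elovl6 and -0.0012 to 0.33 for Acaca. The sterol median at 3 weeks ranged from -0.17 to 0.36. The cause of these turns was not tested.

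The replicate numbers did not pair the pools: same-numbered pools had deviations that correlated at -0.16 to -0.10 over genes at 1 week and -0.23 to -0.050 at 3 weeks. With the replicate number as a block, 0 members were called in either lactation comparison, and Fasn at 1 week was at -0.79 (adjusted p = 0.162). The block ended the calls of Rxra (adjusted p = 0.0944) and Cd68 (0.0714) at 1 week and of Tecr (0.0664) and Mylip (0.0916) at 3 weeks. Pathway-list genes with an adjusted p under 0.05 numbered 0 lower and 1 higher at 1 week, and 3 lower and 4 higher at 3 weeks. Over the alternatives with all pools these counts were 0 to 9, 0 to 5, 1 to 6 and 3 to 8, the highest under DESeq2. With 1 pool left out they were 0 to 3, 0 to 2, 0 to 4 and 1 to 4. The lower count at 3 weeks was 0 without replicate 3 of 3wk SBI, or without replicate 2 or 3 of 3wk SBI + Lac. Without replicate 1 of 3wk SBI + Lac, 1 was lower and 1 higher. At 1 week 3 were lower and 2 higher without replicate 3 of 1wk SBI, and 0 higher without any 1 of the other 5 pools. Elovl6 at 3 weeks was -1.75 at equal depth, where few of its 4 to 49 counts remain. Elovl6 and Sqle have no value under the filter of at least 10 counts in every library. Fits of only the libraries compared were not run for the difference between times, which uses all 12. Alternatives for the pathway and marker genes were added after seeing the data.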
